A study of Ovis aries with 95 samples.

Results

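The brainstem of sheep fetuses (Ovis aries) labelled 120 d of gestational life was compared with that of fetuses labelled 100 d. The comparison rests on 8 of the 95 arrays of the study, 4 at each age, chosen by their labels alone. Each array measured the total RNA of 1 untreated fetus, labelled with Cy3 on an Agilent one-colour sheep array, so a level belongs to 1 sample and is not a ratio to a reference. The whole study covers 4 brain regions (brainstem, cortex, hippocampus and hypothalamus) at 6 ages, which are 80, 100, 120, 130 and 145 d of gestation and lambs 1 d after birth. The methods of the study give the 100 d group as a range of a few days that ends at 100 d, and state that every age group held a set of twins. The labels mark neither the twins nor the sex or the mother of a fetus, so the arrays were treated as independent. The methods also give 4 fetuses at each age for all 4 regions, so arrays of different regions share animals, and the labels do not tie them to a fetus. For these reasons the p-values measure the spread between samples of this study only. For the comparison of 120 d with 100 d that spread was estimated over all 24 brainstem arrays of the 6 ages, not the 8 arrays alone. The RNA came from dissected tissue, and in such bulk samples fewer cells of a type and less RNA per cell cannot be told apart.

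The brainstem connects the forebrain and the cerebellum with the spinal cord and holds the centres for breathing, circulation and swallowing. In the fetal sheep, as in other mammals whose young stand soon after birth, myelination starts well before birth and proceeds early in the hindbrain, while the division of neural progenitors declines and astrocytes mature. Oligodendrocytes make myelin, a membrane rich in lipid and sterol, and store iron for that work, and astrocytes are recognised by their intermediate filament GFAP.

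The ages overlapped in signal over background. Between 72.6 and 86.9% of spots were well above background at 100 d, and between 76.5 and 83.9% at 120 d. The ages shared all 3 slides of the region. On slide 2, which held 100 d replicate 2 and 120 d replicates 2 and 3, 50 to 55 spots an array were marked as outliers. The other arrays compared had 3 to 15. Such spots were left out, so some values are missing on single arrays. Of the 15008 probes, 1562 carry a gene symbol here. The brainstem label could be set against few markers, since only SLC6A4 of 15 markers of brainstem neurons had a named probe, and the neuron, oligodendrocyte precursor and smooth muscle markers had 0. HOXA5, a homeobox gene of the hindbrain and spinal cord, was well above background on all 8 arrays and on 0 of the 23 arrays of the other 3 regions at the same ages.

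All levels and changes given here are on the log2 scale of normalized intensity, and a change is the mean at 120 d minus the mean at 100 d. Of 12606 genes tested in limma, 415 changed at a Benjamini-Hochberg adjusted p under 0.05, which is 3.29%. Of these, 217 were higher (1.72%) and 198 lower (1.57%) at 120 d. The change reached 2-fold in 70 of the 415 genes, and the arrays of both ages did not overlap in 382 of them. Among all genes tested, whether called or not, 6.27% had every 120 d array above every 100 d array and 5.94% had every one below. The median change of all genes was -0.0044, and 1744 genes reached an unadjusted p of 0.05. With the slide as a block 404 genes changed. With the 8 arrays of both ages fitted alone 487 changed, of which 295 were among the 415. Newborn replicate 4, an array of the same region that enters the estimate of the spread, holds a dim area, the lowest of its 64 blocks being at -3.20 against -0.25 to 0.27 on the 8 arrays compared. Without it, a choice made after seeing the data, 1009 genes changed, among them all 415. Without 120 d replicate 3, which stands apart in its immune transcripts, 301 genes changed, of which 286 were among the 415.

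Genes of oligodendrocytes and myelin were among those that rose. Of the 7 measured members of this list, 4 were higher at 120 d (CRYAB, TF, CX32 and PTGDS) and 0 lower, against 1.72% higher among all genes. Their median change was 0.97. The same 4 members passed without 120 d replicate 3 or without newborn replicate 4, which brought CD9 as the fifth. PTGDS had no value on 120 d replicate 3, so leaving that array out could not alter its change. The probes that read the leading pair are printed here, 60 bases each as on the array.
CRYAB (A_70_P039526): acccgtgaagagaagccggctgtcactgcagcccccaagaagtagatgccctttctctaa
TF (A_70_P017181): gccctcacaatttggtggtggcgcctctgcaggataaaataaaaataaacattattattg

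CRYAB, a small heat shock protein that mature oligodendrocytes hold in quantity, was at 12.21, 12.33, 13.27 and 12.87 on the arrays of 100 d replicates 1 to 4 and at 14.32, 14.30, 13.98 and 14.20 at 120 d. Every 120 d array lay above every 100 d array, and the 120 d arrays were closer together. The change was 1.53 (SE 0.21, adjusted p = 0.000422), or 2.89-fold. Within the 3 slides it ran from 1.13 to 2.11. TF, the iron carrier transferrin made in the brain by oligodendrocytes and choroid plexus, stood at 16.09, 15.65, 16.01 and 15.67 at 100 d against 17.37, 17.01, 17.37 and 17.60 at 120 d. It rose by 1.48 (SE 0.23, adjusted p = 0.000955), with 1.29 to 1.76 within slides, and the ages did not overlap. Both genes passed whichever of the 8 arrays was left out.

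CX32, the gap junction protein connexin 32 of myelinating cells, was at 8.52, 8.68, 10.24 and 9.33 at 100 d and at 10.46, 10.52, 10.19 and 10.51 at 120 d. Here 100 d replicate 3 was as high as the lowest 120 d array, and the remaining 100 d arrays lay below. The change was 1.23 (SE 0.26, adjusted p = 0.0104). PTGDS, the prostaglandin D synthase of oligodendrocytes, meninges and choroid plexus, was at 16.09, 16.09, 16.003 and 16.54 at 100 d and at 16.95, 17.53 and 16.97 on the 3 arrays of 120 d that measured it, with no value for 120 d replicate 3. It rose by 0.97 (SE 0.23, adjusted p = 0.0230) and passed in 4 of 8 fits that each left out 1 array, with an adjusted p of up to 0.145 without 120 d replicate 2. The tetraspanin CD9 did not pass (0.75, adjusted p = 0.139), although its 120 d arrays, at 13.02 to 13.56, all lay above the 100 d arrays, at 12.14 to 12.92. Ferritin FTH1 (-0.12) and the tetraspanin CD81 (-0.07) complete the list. TTR, the transthyretin of choroid plexus, a tissue that makes TF and PTGDS too, ran from 15.69 to 18.49 at 100 d and from 15.13 to 18.13 at 120 d, with no value for 120 d replicate 2 (-0.64, adjusted p = 0.925). Its part in the level of TF and PTGDS was not tested.

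The mean level of the 3 oligodendrocyte markers (CRYAB, TF and CX32) was 12.2 to 13.2 on the 100 d arrays and 13.8 to 14.1 on the 120 d arrays. The list describes only the genes just given.

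**Figure D1:**
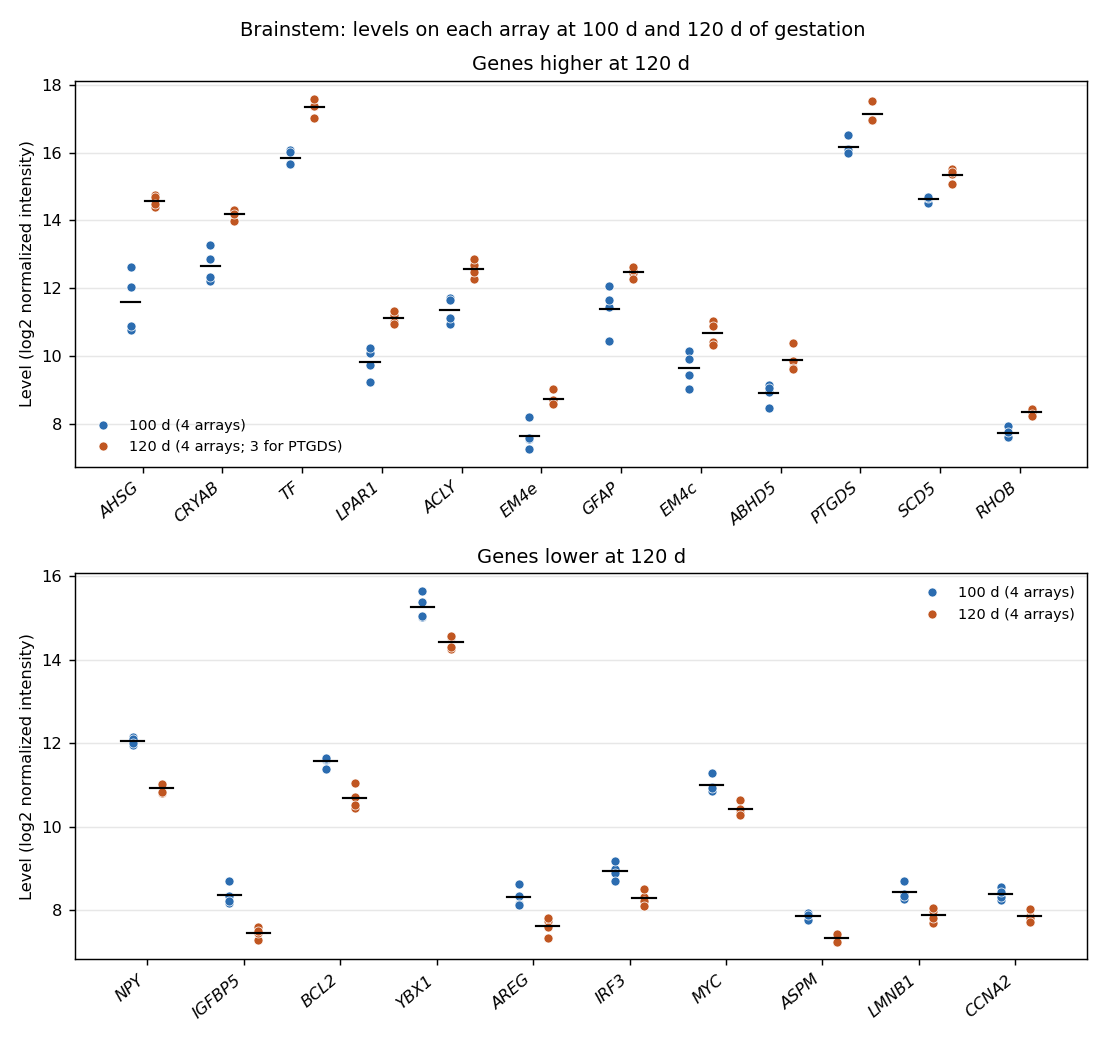
Level on the log2 scale of normalized intensity (vertical axis) of the named genes past the threshold with no overlap of the ages, 12 higher (top) and 10 lower (bottom) at 120 d, each point 1 array, blue 100 d and orange 120 d, black bars the means. AHSG shows the widest gap, from a mean of 11.58 to 14.58, and its 100 d arrays scatter more than its 120 d arrays.

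Single genes of lipid synthesis and turnover also rose. In the sterol and fatty acid list 2 of 20 members were higher (ACLY and SCD5, against 1.72% of all genes), 0 were lower, and the median change was 0.03. Without newborn replicate 4, 5 were higher and 1 was lower. ACLY, which supplies acetyl-CoA for fatty acids and sterols, was at 11.71, 10.94, 11.13 and 11.66 at 100 d and at 12.70, 12.86, 12.26 and 12.49 at 120 d. It rose by 1.21 (SE 0.26, adjusted p = 0.0107). SCD5, a desaturase that makes monounsaturated fatty acids in the brain, was tightly grouped at 14.51 to 14.71 before and 15.07 to 15.51 after. Its change was 0.71 (SE 0.14, adjusted p = 0.00715). The related desaturase SCD changed by 0.67 without passing (adjusted p = 0.118), and passed without newborn replicate 4 (adjusted p = 0.0293). Outside the list, ABHD5, a cofactor of triglyceride lipase, went from 8.47 to 9.13 up to 9.63 to 10.38, a change of 0.98 (SE 0.19, adjusted p = 0.00616).

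LPAR1, a receptor for lysophosphatidic acid found on oligodendrocytes and progenitors, was at 9.72, 9.22, 10.09 and 10.25 at 100 d and at 11.20, 11.32, 11.00 and 10.95 at 120 d. The ages were well apart, and the change was 1.299 (SE 0.18, adjusted p = 0.000422). ACLY, SCD5, ABHD5 and LPAR1 each passed in all 8 fits that left out 1 of the arrays. RHOB, a small GTPase of endosomes and the cytoskeleton, moved from 7.61 to 7.94 at 100 d to 8.24 to 8.44 at 120 d (0.62, SE 0.14, adjusted p = 0.0146), and passed in 5 of those 8 fits, with up to 0.0576 without 120 d replicate 2.

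Astrocyte genes lay mostly above 0 by small amounts. The 16 measured members match 14 entries of the list, since an entry can match several names on the array. Of these 16 members 14 were above 0 and 2 below, 1 passed as higher (against 1.72% of all genes), and the median change was 0.21. GFAP, the filament protein of mature astrocytes, was at 12.06, 10.44, 11.44 and 11.67 at 100 d and at 12.45, 12.54, 12.62 and 12.26 at 120 d. The 120 d arrays were all higher, while 100 d replicate 2 lay well below the rest of its group. The change was 1.07 (SE 0.28, adjusted p = 0.0367) and 0.39 to 2.14 within slides. Without 100 d replicate 2 it was 0.75 (adjusted p = 0.150). GFAP passed in 2 of the 8 such fits. MT3, a metallothionein of astrocytes (0.56, adjusted p = 0.0731), and the glutamate transporter EAAT2 (0.33, adjusted p = 0.0751) had no overlap between ages, and passed without newborn replicate 4 (adjusted p = 0.0123 and 0.0399), where 3 members of the list were higher. Without 120 d replicate 3, 0 members passed. The water channel AQP4 was at 15.29 to 16.44 and 15.98 to 16.83, and overlapped (0.62, adjusted p = 0.415). The 8 astrocyte markers measured are names that match 6 entries of the marker list. Their mean level was 10.5 to 10.8 on the 100 d arrays and 10.9 to 11.1 on the 120 d arrays.

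**Figure D2:**
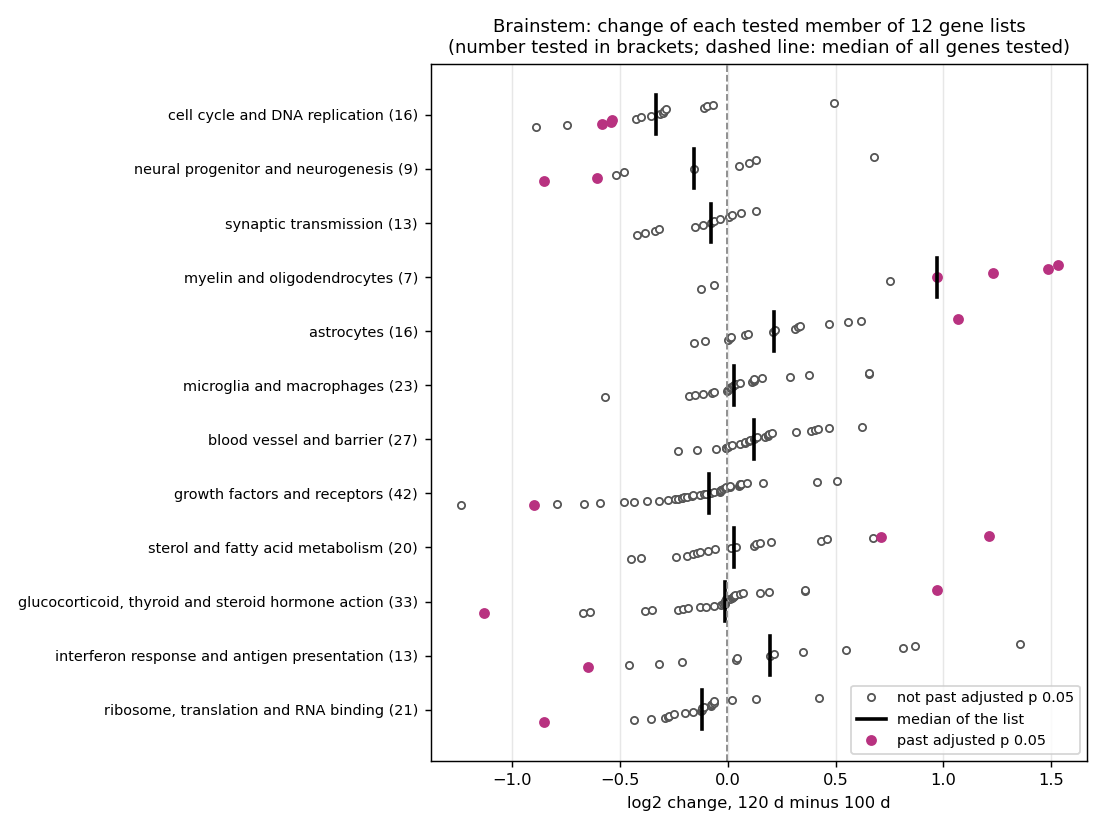
Change from 100 d to 120 d (horizontal axis, log2) of each measured member of 12 gene lists, filled points past an adjusted p of 0.05, black bars the medians of the lists, dashed line the median of all genes. The myelin list has its median at 0.97 and the cell cycle list at -0.34, and the other 10 medians lie from -0.16 to 0.21.

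The gene with a symbol that rose most was AHSG, which encodes fetuin-A, a secreted glycoprotein of fetal plasma that is also made in the developing brain. It was at 10.77, 12.03, 12.64 and 10.90 at 100 d and at 14.39, 14.75, 14.70 and 14.49 at 120 d. The 120 d arrays lay close together and all 100 d arrays were lower and scattered. The change was 3.00 (SE 0.75, adjusted p = 0.0282), or 7.99-fold, and 2.70 to 3.62 within slides. Its 2 probes gave 3.03 and 2.97. The 80 d arrays do not continue the line, since they were at 11.32, 12.82, 16.06 and 15.82, so both low and high levels occurred before 100 d. AHSG passed in 1 of the 8 fits that left out an array, with an adjusted p of up to 0.0874 without 100 d replicate 1. The other plasma proteins measured, ApoA1 (-0.45), SERPINA1 (-0.06) and ALB (-0.06), did not pass. The probes share the 20 bases in capitals and so read adjoining stretches of 1 transcript.
AHSG (A_70_P039676): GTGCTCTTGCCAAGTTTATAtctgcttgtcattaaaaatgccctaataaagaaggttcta
AHSG (A_70_P039677): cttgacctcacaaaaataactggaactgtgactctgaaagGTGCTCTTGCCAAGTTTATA

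Several genes of cell division fell. In the cell cycle list 15 of 16 measured members were below 0, 3 passed as lower (MYC, LMNB1 and CCNA2) and 0 as higher, against 1.57% lower among all genes, and the median change was -0.34. Without newborn replicate 4, 6 members were lower, and without 120 d replicate 3, 2 were. ASPM, a spindle protein of dividing neural progenitors that was not on the list, was at 7.87, 7.93, 7.77 and 7.89 at 100 d and at 7.37, 7.24, 7.42 and 7.23 at 120 d. Both groups were tight and apart. It fell by 0.55 on the log2 scale (SE 0.10, adjusted p = 0.00372) and passed in 8 of 8 fits that left out an array.

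MYC, a transcription factor that drives growth and division, was at 11.29, 10.86, 10.94 and 10.92 at 100 d and at 10.65, 10.36, 10.41 and 10.27 at 120 d. Its change was -0.58 (SE 0.13, adjusted p = 0.0120), and without 100 d replicate 1 the adjusted p was 0.0502. CCNA2, the cyclin of S phase and mitosis, stood at 8.25 to 8.55 and then at 7.71 to 8.02, a change of -0.54 (SE 0.14, adjusted p = 0.0397). LMNB1, the nuclear lamin B1 that is abundant in progenitors, went from 8.27 to 8.69 down to 7.69 to 8.04 (-0.54, SE 0.15, adjusted p = 0.0440). CCNA2 passed in 1 and LMNB1 in 0 of the 8 fits that left out an array, with adjusted p up to 0.118 without 120 d replicate 4 and 0.154 without 120 d replicate 2.

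The mitotic kinases CDK1 (-0.30, adjusted p = 0.205) and AURKA (-0.29, adjusted p = 0.162) did not pass, although all their 120 d arrays were lower. Without newborn replicate 4 AURKA passed (adjusted p = 0.00726). The G1 cyclin CCND2, at 12.17 to 12.53 and then at 10.90 to 11.72, did not pass either (-0.89, adjusted p = 0.126). The mean level of the 5 markers of proliferating progenitors was 8.39 to 8.60 on the 100 d arrays and 8.04 to 8.25 on the 120 d arrays, and 5 of 5 were below 0. CDKN1B, an inhibitor of the cycle, was the member above 0 (0.49, adjusted p = 0.209).

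In the list of neural progenitors and neurogenesis 2 of 9 members passed as lower (against 1.57% of all genes) and 0 as higher, with a median of -0.16, and without 120 d replicate 3 none of the 9 passed. YBX1, a nucleic acid binding protein of immature cells, was at 15.65, 15.38, 15.02 and 15.04 at 100 d and at 14.54, 14.26, 14.57 and 14.30 at 120 d. The change was -0.85 (SE 0.23, adjusted p = 0.0405), and it passed in 2 of 8 fits that left out an array, with up to 0.130 without 100 d replicate 1. It was also the 1 member of 21 that passed in the list of ribosome, translation and RNA binding (against 1.57% lower among all genes). In that list 18 of 21 members were below 0 and the median was -0.12. WNT-5A, a secreted Wnt ligand, overlapped between ages at 9.48 to 10.18 and 9.07 to 9.64. Its change of -0.61 (adjusted p = 0.0489) passed under 7 of 14 other settings and had an adjusted p of up to 0.166 without 120 d replicate 3.

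Most growth factor transcripts lay slightly below 0. Among 42 growth factors and receptors 32 were below 0 and the median was -0.09, but 1 passed as lower (against 1.57% of all genes), which was IGFBP5. This binding protein of insulin-like growth factors was at 8.69, 8.16, 8.34 and 8.23 at 100 d and at 7.27, 7.60, 7.45 and 7.48 at 120 d. It fell by 0.90 on the log2 scale (SE 0.12, adjusted p = 0.000422), passed whichever array was left out, and changed by -1.42 to -0.63 within slides. IGF2, the fetal growth factor, had arrays at 10.84 to 11.47 and then at 9.51 to 10.04. Its change of -1.24 did not pass (SE 0.49, adjusted p = 0.219).

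NPY, a neuropeptide of feeding and autonomic control, was at 12.16, 11.95, 12.09 and 11.99 at 100 d and at 10.99, 11.02, 10.82 and 10.84 at 120 d. The arrays of each age lay close together and apart from the other age, and the change was -1.13 (SE 0.27, adjusted p = 0.0236), or -1.20 to -1.03 within slides. It passed in 1 of 8 fits that left out an array, with up to 0.0641 without 100 d replicate 1. BCL2, which protects cells from apoptosis, went from 11.39 to 11.64 down to 10.46 to 11.04 (-0.89, SE 0.21, adjusted p = 0.0217, up to 0.0862 without 120 d replicate 2). It passed in 2 of 8 such fits. IRF3, a transcription factor of the innate interferon response, was at 8.99, 8.89, 9.18 and 8.68 at 100 d and at 8.31, 8.22, 8.51 and 8.10 at 120 d, a change of -0.65 (SE 0.14, adjusted p = 0.00898) that passed in 8 of 8 such fits. AREG, the epidermal growth factor receptor ligand amphiregulin, moved from 8.12 to 8.61 at 100 d to 7.33 to 7.81 at 120 d (-0.68, SE 0.18, adjusted p = 0.0432, up to 0.166 without 100 d replicate 2). This fall passed in 1 of 8 such fits.

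Pituitary and meningeal markers are given beside these genes. Prolactin PRL ranged from 8.84 to 12.42 at 100 d and from 7.57 to 10.004 at 120 d, a change of -1.74 that did not pass (adjusted p = 0.274), and LHB changed by -0.04. The 3 markers of meninges and fibroblasts were all below 0, with a mean level of 8.67 to 8.996 at 100 d and 8.32 to 8.62 at 120 d. Their part in the results was not tested.

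HOX genes, which set position along the hindbrain and spinal cord, were measured in HOXA5, HOXA7, HOXA4 and HOXC6, a group chosen after the values were seen except for HOXA5. HOXA5 was at 10.72, 9.82, 11.43 and 11.16 at 100 d and at 9.80, 9.90, 9.22 and 9.32 at 120 d, so that 100 d replicate 2 lay among the 120 d arrays. Its change was -1.22 (SE 0.29, adjusted p = 0.0209). Within slides 1, 2 and 3 it was -0.92, -0.25 and -1.98, and it passed in 4 of 8 fits that left out an array, with up to 0.0758 without 100 d replicate 3. HOXA7 (-1.03, adjusted p = 0.0731), HOXC6 (-0.79, adjusted p = 0.234) and HOXA4 (-0.48, adjusted p = 0.197) did not pass, and in each 100 d replicate 2 was the lowest of the 100 d arrays. HOXA7 passed without newborn replicate 4 (adjusted p = 0.0410). The methods place the caudal limit of the brain at a cut in front of the axis vertebra, and the labels give no measure of it for single arrays. HOX genes resemble each other in the homeobox, and whether the probe reads more than 1 of them was not tested.
HOXA5 (A_70_P017041, with the 59 bases in capitals shared with its second probe): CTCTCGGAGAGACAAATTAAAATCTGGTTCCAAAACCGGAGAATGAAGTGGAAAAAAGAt

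Beyond the genes already given, 5 with a symbol passed outside the rule by which genes were named. ARL1, a small GTPase of the Golgi, was higher (0.43, adjusted p = 0.0211), as was CP, the copper protein ceruloplasmin (0.52, adjusted p = 0.0233). TFAP2A, a transcription factor of neural crest and hindbrain neurons (-0.85, adjusted p = 0.0364), the gastrin-releasing peptide GRP (-0.76, adjusted p = 0.0201) and the mitochondrial carrier SLC25A6 (-0.65, adjusted p = 0.0489) were lower, with overlapping arrays. In all, 30 of the 874 genes with a symbol passed, 15 in each direction (3.43%), and 75 without newborn replicate 4. The other 385 calls fell on probes without a symbol here.

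EM4e and EM4c, named so in the files and with no further description there, rose together. EM4e was at 7.56, 8.19, 7.24 and 7.58 at 100 d and at 8.66, 8.69, 8.59 and 9.02 at 120 d (1.097, SE 0.26, adjusted p = 0.0199). EM4c was at 9.03, 10.16, 9.44 and 9.92 and then at 11.03, 10.42, 10.34 and 10.89 (1.03, SE 0.28, adjusted p = 0.0413). All 120 d arrays were higher in both. They passed in 4 and 3 of 8 fits that left out an array, with adjusted p up to 0.0691 without 120 d replicate 4 and 0.144 without 100 d replicate 1. EM4c changed by 0.22 to 2.00 within slides. Their probes share the 21 bases in capitals, so that reading of 1 transcript by both cannot be told apart from a rise of both.
EM4e (A_70_P026157): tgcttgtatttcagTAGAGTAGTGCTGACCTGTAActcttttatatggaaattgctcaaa
EM4c (A_70_P041476): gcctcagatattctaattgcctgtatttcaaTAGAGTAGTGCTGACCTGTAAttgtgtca

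In most other lists no member passed. This held for the members of 23 microglia and macrophage genes (median 0.03), 27 blood vessel and barrier genes (0.12), 13 genes of synaptic transmission (-0.08), 17 of glycolysis and energy metabolism (-0.05), 17 of the lysosome (-0.06), 33 of cytokines and inflammation (0.02) and 18 of extracellular matrix and cytoskeleton (-0.09). The same count of 0 held for 24 genes of the hematopoietic cell lineage, 12 of T cells, 11 of the clock, 8 of the proteasome, 7 ion channels and pumps and 6 of axon guidance. These 13 lists held 192 distinct genes, of which 0 passed, where 3.29% of all genes did. The lists were gathered here for having no call, so the 0 follows from that choice. At an unadjusted p under 0.05 in limma were 27 of the 192, a share close to that of all genes (1744 of 12606). Without newborn replicate 4 members passed in 7 of the 13 lists, with 1 higher and 2 lower in the lysosome list, and without 120 d replicate 3 in 0. In the vessel list 22 of 27 members were above 0, among them VEGFA, a growth factor of vessels (0.62, adjusted p = 0.138), and the glucose transporter GLUT-1 (0.47, adjusted p = 0.157), both with all 120 d arrays higher. GLUT-1 passed without newborn replicate 4 (adjusted p = 0.0182). In the hormone list of 33 genes 1 rose and 1 fell, PTGDS and NPY. The stress response list of 19 genes likewise had 1 of each, CRYAB and MYC, and BCL2 was the member that passed, as lower, among 10 genes of apoptosis. Among all genes 1.72% were higher and 1.57% lower.

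Immune transcripts set 1 array apart. In 120 d replicate 3 the MHC class I gene OVAR was at 15.68 against 13.10 to 13.62 on the other 120 d arrays and 12.09 to 12.93 at 100 d. Its light chain partner B2M was at 16.66 against 13.90 to 14.68 on the other 7 arrays. The T cell receptor subunits CD3D and CD3E were at 8.07 and 8.80 there, and at most at 6.99 and 7.499 elsewhere. HBB, a globin of red cells, was also highest on this array, at 15.37, and ranged from 12.39 to 14.28 on the rest. None of these 5 passed in limma, and OVAR alone had an unadjusted p under 0.05. In the interferon and antigen presentation list 1 of 13 members passed as lower (against 1.57% of all genes), which was IRF3. The median of 0.19 became -0.06 without this array.

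The families found by the descriptions in the files, a search made after the values were seen, show the same array beside a shift of the others. The 14 MHC class I entries had a median change of 1.31, or 0.85 without 120 d replicate 3, and 0 passed with or without it. At an unadjusted p under 0.05 in limma were 8 of the 14, where 1744 of all 12606 genes were. In 12 of the 14 every measured 120 d array lay above every 100 d array, where 6.27% of all genes did so. Some of these entries had no value on part of the 120 d arrays, which makes such a separation easier. Replicate 3 at 120 d was the highest of the 8 in 11 of the 11 entries with a value on it. Among 10 MHC class II entries the median went from 0.91 to 0.32, and 0 passed (6 unadjusted). The 29 immunoglobulin entries had a median of 0.02 and 0 passed (0 unadjusted). MHC genes resemble each other, so their entries may share transcripts.

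T19 entries passed with and without that array. T19 is the sheep name of WC1, a scavenger receptor on the surface of gamma-delta T cells of ruminants. All 4 entries were higher at 120 d (against 1.72% of all genes), with a median of 1.04. Without 120 d replicate 3 again 4 of 4 were higher, with a median of 1.12, where 172 of all 12606 genes were. In 1 of them (A_70_P041466) the ages overlapped. The entry read by A_70_P041461 and A_70_P041471 was at 8.31, 9.46, 8.24 and 8.85 at 100 d and at 10.20, 9.75, 9.64 and 9.97 at 120 d. Replicate 2 was the highest of the 100 d arrays and came close to the 120 d group. Its change was 1.17 (SE 0.26, adjusted p = 0.0122), and the other 3 entries changed by 0.90 to 1.29 with adjusted p of 0.0173 to 0.0312. Within slides the 4 entries together ran from 1.37 to 1.89 on slide 1, from -0.06 to 0.24 on slide 2, which held 100 d replicate 2, and from 0.98 to 2.18 on slide 3, so the rise does not hold on slide 2. The entries passed in 2 to 7 of 8 fits that left out an array, with adjusted p up to 0.114.

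A T cell receptor alpha entry passed as well (1.07, SE 0.29, adjusted p = 0.0440), at 10.32 to 10.65 and then at 10.89 to 12.27, and did not pass without 120 d replicate 3 (0.84, adjusted p = 0.163). The other 13 T cell receptor entries had a median of -0.02 and 0 passed (0 unadjusted). The mean level of the 3 T cell markers was 7.03 to 7.20 at 100 d and 7.13 to 8.27 at 120 d, with 0 of 3 past the threshold. The red cell markers HBB (0.96, adjusted p = 0.406) and AHSP (0.59, adjusted p = 0.447) did not pass. The part of blood in these transcripts was not tested. The T19 probes fall into a set of 4 and a set of 2 by the stretch they share, marked in capitals, and the members of a set may read each other's transcripts.
T19, first set (A_70_P041461): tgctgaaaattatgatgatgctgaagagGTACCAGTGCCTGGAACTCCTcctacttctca
T19, first set (A_70_P056816): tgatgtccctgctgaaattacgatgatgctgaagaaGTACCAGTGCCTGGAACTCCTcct
T19, second set (A_70_P041466): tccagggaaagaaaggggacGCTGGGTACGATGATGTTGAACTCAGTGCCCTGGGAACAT
T19, second set (A_70_P041471): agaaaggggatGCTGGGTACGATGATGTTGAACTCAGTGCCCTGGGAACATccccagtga

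**Figure D3:**
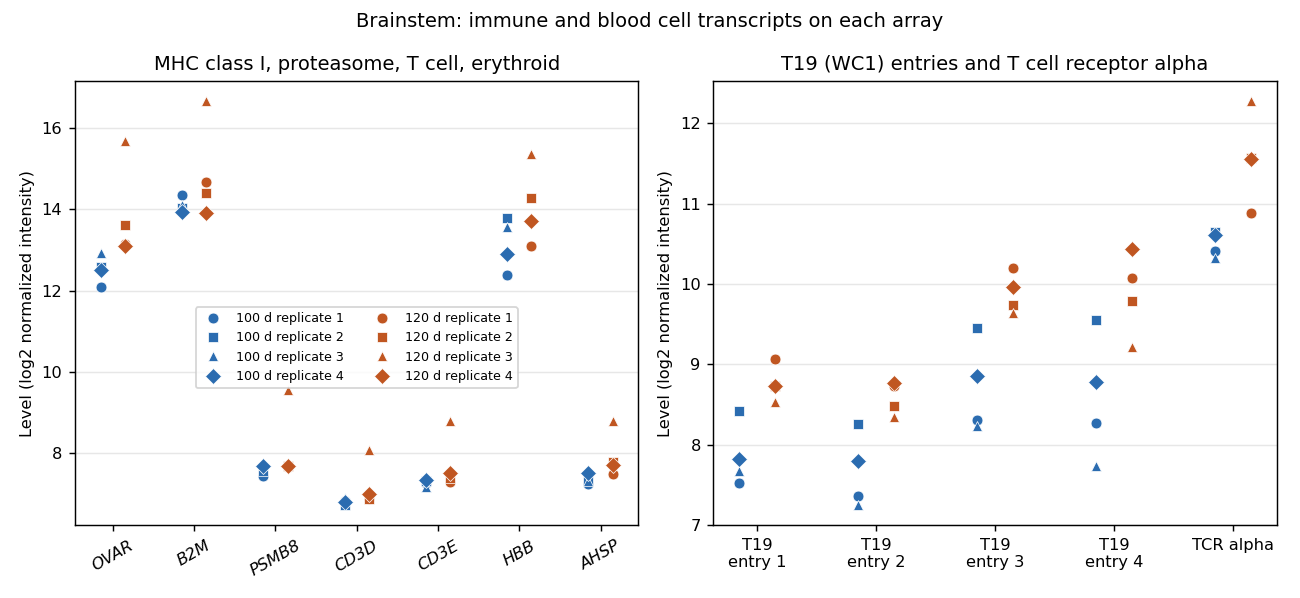
Level (vertical axis, log2 of normalized intensity) of immune and red cell genes (left) and of the 4 T19 entries and T cell receptor alpha (right) on each of the 8 arrays, blue 100 d and orange 120 d, the shape giving the replicate number. On the left 120 d replicate 3 (orange triangle) lies above all other arrays, while in the T19 entries it is the lowest of the 120 d arrays.

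The probes without a symbol that led both directions are shown by their sequences, which are the only identity available here, in lower case throughout. A_70_P037411 was at 12.07, 13.06, 13.75 and 13.01 at 100 d and at 15.17, 15.24, 15.43 and 14.74 at 120 d. The gap between the ages was wide, the change was 2.17 (SE 0.41, adjusted p = 0.00417), and it passed whichever array was left out. A_70_P058651 was at 10.76, 10.15, 10.06 and 10.40 and then at 8.65, 9.27, 8.76 and 9.29. It fell by 1.35 on the log2 scale (SE 0.20, adjusted p = 0.000673), also in all 8 such fits. A_70_P002481 fell by 1.297 on the log2 scale (SE 0.31, adjusted p = 0.0217), from 14.52 to 16.12 down to 13.53 to 14.10, and passed in 4 of 8.
A_70_P037411: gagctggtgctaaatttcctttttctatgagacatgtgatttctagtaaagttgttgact
A_70_P058651: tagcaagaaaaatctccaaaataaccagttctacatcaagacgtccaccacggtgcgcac
A_70_P002481: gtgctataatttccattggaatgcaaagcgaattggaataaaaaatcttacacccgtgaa

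The probe with the largest rise among those tested, A_70_P066011, behaved as all or none. It was at 6.399, 6.44, 6.50 and 6.52 at 100 d, where it was well above background on 0 of 4 arrays, and at 9.88, 9.85, 9.70 and 10.01 at 120 d. This is about 10.4-fold higher (adjusted p = 0.0142 in limma). For this ratio a 100 d array below the dimmest signal well above background on it was raised to that signal, which held for replicate 1. The other 100 d arrays kept their own readings, which did not count as well above background, so the ratio is not a strict lower bound. The same levels recurred in the other regions. Over all 95 arrays 44 were at 6.65 or lower, 51 at 9.43 or higher, and none lay between. All 15 arrays at 100 d were low and all 16 at 120 d were high, whatever the region, but they come from 4 fetuses an age and are not separate animals. Over the other ages the 145 d arrays were low and the newborn arrays high, and 2 age groups, 80 d and 130 d, held both. A difference with age and a difference between the animals of the groups cannot be told apart.
A_70_P066011: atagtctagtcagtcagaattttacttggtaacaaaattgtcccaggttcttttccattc

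The remaining ages of the region place the step from 100 to 120 d in a longer course, given here as means of 4 arrays (3 for TF after birth) without a test. CRYAB was at 10.56 at 80 d, 12.67 at 100 d, 14.20 at 120 d, 14.64 at 130 d, 14.98 at 145 d and 15.22 after birth. TF rose from 13.84 at 80 d to 15.86 and 17.34, and then stayed at 17.18 to 17.59. In CX32 the mean went from 7.18 over 9.19 to 10.42, with 10.45 to 10.94 afterwards. For these 3 genes the largest step had thus come before 100 d, and less followed after 120 d.

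ACLY did not have that earlier step, with 11.52 at 80 d, 11.36 at 100 d, 12.58 at 120 d and 12.25 to 12.55 later. ASPM and IGFBP5 likewise stood at 7.88 and 8.53 at 80 d, close to their 100 d means of 7.86 and 8.35, before they dropped to 7.32 and 7.45 at 120 d. NPY was highest at 100 d, at 12.05 against 11.49 at 80 d, and reached 9.99 after birth. MYC declined at each age, from 11.42 through 11.00, 10.42, 9.91 and 9.66 to 9.62.

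**Figure D4:**
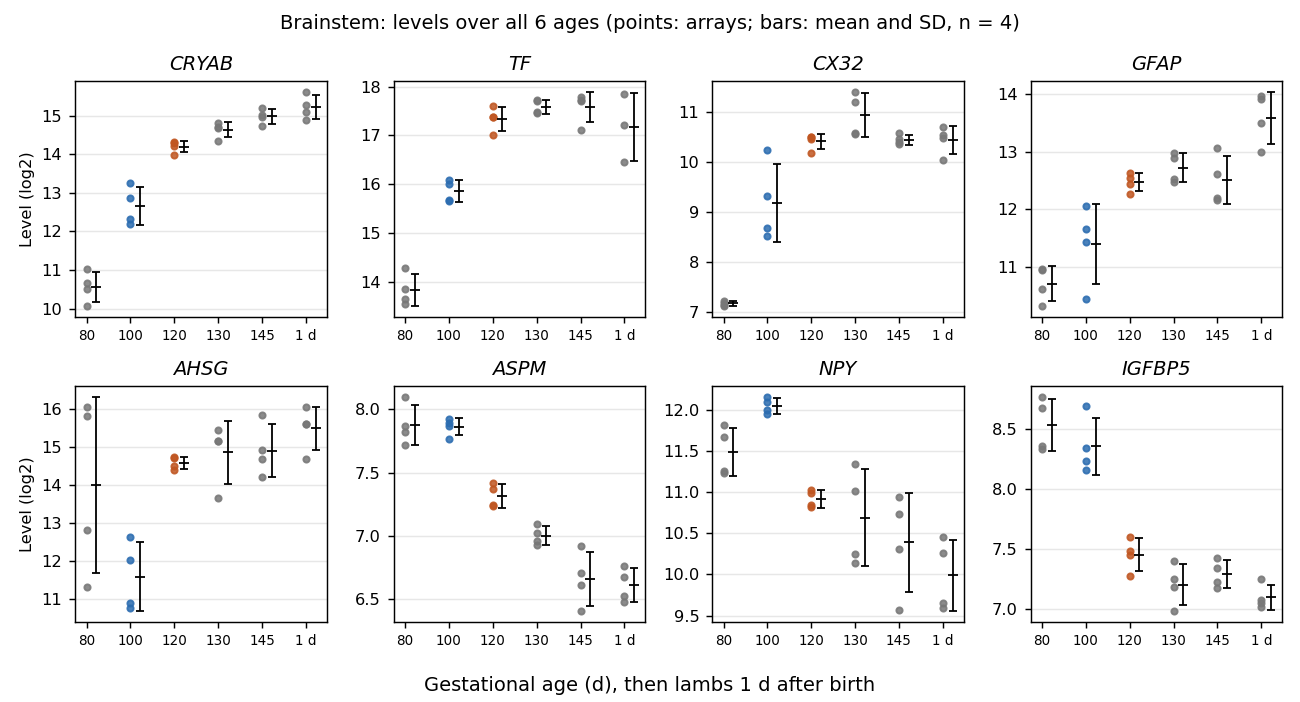
Level (vertical axis, log2 of normalized intensity) of 8 genes in the brainstem at the 6 ages (horizontal axis, days of gestation, then lambs 1 d after birth), points single arrays and bars the mean and SD of 4 arrays (3 for TF after birth), 100 d in blue and 120 d in orange. CRYAB, TF and CX32 climb from 80 d to 120 d, ASPM and IGFBP5 drop after 100 d, and AHSG spreads from 11.32 to 16.06 at 80 d.

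Few genes passed a test of whether their change in the brainstem differed from that in another region over the same interval. The difference between the changes, tested over all 95 arrays, passed for 7 of 12968 genes against cortex (0.054%), 2 of 13235 against hypothalamus (0.0151%) and 5 of 13077 against hippocampus (0.0382%). The test treats arrays of different regions as independent although they share fetuses, and the effect of this on the p-values was not tested. Before adjustment 283, 226 and 389 genes had a p under 0.05 in limma, in each case a share below 0.05 of those tested. The small counts therefore do not show that the regions changed alike. When only the fetal arrays of brainstem and cortex were fitted, a choice made after seeing the data, 180 genes differed. The same choice gave 2 genes for hypothalamus and 1 for hippocampus. Before adjustment these fits had 1617 genes for cortex, 636 for hypothalamus and 269 for hippocampus.

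AREG moved in opposite directions in brainstem and cortex. In cortex it was at 8.18 to 8.53 at 100 d and at 9.18 to 9.46 at 120 d, a rise of 0.96, set against the fall of 0.68 on the log2 scale in brainstem. The difference was -1.65 (SE 0.30, adjusted p = 0.00294), and it passed in 16 of 16 fits that left out an array. In hypothalamus AREG went from 8.33 to 8.85 down to 7.60 to 8.24, a change of -0.65, and in hippocampus it was at 8.95 to 9.73 and 8.91 to 9.64.

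HOXA5 was among the genes counted against each region, but this does not show that its change differed. In the other regions it was well above background on 0 of 23 arrays, at 6.29 to 6.54, so no change could be measured there, and the value in the test is the fall in brainstem alone. FBXO32, a ubiquitin ligase subunit of protein breakdown, was at 11.81 to 12.47 and 11.74 to 12.38 in brainstem, and rose by 1.49 in hippocampus. The difference was -1.65 (SE 0.35, adjusted p = 0.0282), and it passed in 7 of 15 fits that left out an array, with up to 0.149 without hippocampus 120 d replicate 1. With the fetal arrays of both regions alone the FBXO32 difference did not pass (adjusted p = 0.207 in limma).

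Genes of oligodendrocytes started from other levels in the other regions. At 100 d the mean of TF was 15.86 in brainstem, 12.34 in hypothalamus, 9.90 in hippocampus and 9.06 in cortex. Its change to 120 d was 1.48 in brainstem, 3.72 in hypothalamus, 4.73 in hippocampus and 3.58 in cortex. The difference in change passed with the fetal arrays alone against cortex (-2.10, adjusted p = 0.0301) and hypothalamus (-2.24, adjusted p = 0.0202), not against hippocampus, and passed in none of the 3 tests over all 95 arrays. PTGDS rose by 2.47 in cortex and 0.97 in brainstem, with a difference of -1.50 (adjusted p = 0.00880) among fetal arrays and 0.216 over all 95. ACLY (1.40, adjusted p = 0.0113), LPAR1 (0.89, adjusted p = 0.0261) and NPY (-1.34, adjusted p = 0.0148) also passed against cortex in the fetal fit alone. Over all 95 arrays their adjusted p were 0.488, 1.00 and 0.669.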

How the data were processed

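The authors hybridized Cy3-labelled RNA to Agilent sheep arrays with probes of 60 bases. The deposited file of each array holds the mean intensity and the local background intensity of every spot on a linear scale, with a processed signal, before normalization between arrays. A table of the authors' own normalized log2 values, for 11138 probes, came with the series, and its columns correlated at 0.999 to 1.00 with the values computed here.

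From the files, background was removed by normexp with an offset of 50, which narrows the changes of dim probes, and arrays were quantile normalized over the whole study with limma 3.58.1 in R 4.3.3. Spots marked as outliers were left out on their array. A probe was kept if 4 or more brainstem arrays had it above 1.1 times the level that 95% of the 77 negative control spots stayed under, and probes of a gene were averaged, those lacking an array only where none was complete. Symbols came from the files and the RefSeq sheep table (704 probes by accession, 125 by gene identifier, 484 by symbol, 20 by synonym, 229 by the file's name). Genome coordinates were not used here. Depth on arrays is signal over background, and 4 arrays a group limit the precision.

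Age means were fitted over the 24 brainstem arrays (lmFit and eBayes), and the contrast of 120 d with 100 d was called at a Benjamini-Hochberg adjusted p under 0.05. Differences between regions were fitted over all 95 arrays. The temporal method of the study was not run here. Lists are given by counts and medians, with no test of the list. Where an entry of a list matched several names on the array, each name counts as a member. The samples, gene lists and comparisons were chosen with earlier results of these data known. Genes named are those with a symbol that passed without overlap of the ages (the 12 with the largest rise and fall), up to 4 of each list by adjusted p, genes of the study's text, and the 3 leading genes of each comparison of regions. T19, MHC, HOX, EM4 and the probes without a symbol were described after their values were seen, as were members named to complete a list. The fit was tested on simulated data. The alternatives were other background, scaling, filter, probe, block and threshold settings, the series table, and leaving out arrays.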

Additional observations from a re-analysis of the deposited data

Results flagged for a closer look

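Single arrays stood far from the other 3 of their age in 11 of the 246 groups of 4 arrays examined over the named genes, where chance gives about 1 in 20. Of these, 5 were 120 d replicate 3, namely CD3D at 8.07 (others 6.87 to 6.99), CD3E at 8.80 (7.30 to 7.499), PSMB8, an immunoproteasome subunit, at 9.54 (7.66 to 7.69), ATF4, a transcription factor of the stress response, at 10.096 (10.28 to 10.31), and CX32 at 10.19 (10.46 to 10.52). The other 120 d arrays so marked were replicate 1 in the matrix proteoglycan DCN, at 10.89 (11.32 to 11.39), and replicate 4 in the glutamate receptor MGLUR1, at 7.23 (6.78 to 6.83). At 100 d they were replicate 1 in WNT-5A, at 9.48 (10.08 to 10.18), replicate 2 in BCL2, at 11.39 (11.60 to 11.64), replicate 3 in the sodium pump subunit ATP1B1, at 15.24 (15.47 to 15.49), and replicate 4 in CD81, at 13.85 (14.12 to 14.16).

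By the test of the difference, the change from 100 to 120 d differed between brainstem and cortex for AREG (-1.65) and between brainstem and hippocampus for FBXO32 (-1.65). AREG passed in 16 of 16 fits that left out an array. FBXO32 passed in 7 of 15 such fits and did not pass with the fetal arrays alone (adjusted p = 0.207 in limma). HOXA5 was past the same threshold against cortex (-1.20), hypothalamus (-1.25) and hippocampus (-1.27), but it was well above background on 0 of the 23 arrays of those regions, so these values are the fall in brainstem alone and do not show a difference in change.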

How the results depend on the processing

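Of the 24 genes past the threshold that were named for their change or by a list, none changed direction under any alternative. Most were chosen for having no overlap between the ages. Those could not change direction when an array was left out or within a slide, so that part was fixed by the choice. The calls of the 24 genes held in 334 of 384 checks under other settings and in 115 of 192 fits that left out 1 array. The 384 include single probes of a gene and the stricter threshold of 0.01 on the main fit, which 8 of the 24 genes passed. HOXA5, named through the regions, kept its direction too. Within single slides 55 of 72 values stayed within the spread of the arrays. One T19 entry (A_70_P041466) turned to -0.0555 within slide 2. The count of 415 changed genes (217 higher, 198 lower) became 1052 (547 and 505) with array weights, 1106 (569 and 537) with fetal arrays alone, 1009 (508 and 501) without newborn replicate 4, which was added after seeing the data, and 144 (89 and 55) at an adjusted p under 0.01. Leaving out each of the 8 arrays gave 195 to 350 changed (117 to 177 higher, 78 to 174 lower), lowest without 120 d replicate 2 (195), 100 d replicate 2 (226), 120 d replicate 1 (233) and 120 d replicate 4 (270). The cause was not tested. The replicate number as a block gave 389 genes. Same-numbered arrays of both ages correlated in their deviations at 0.43, 0.06, -0.13 and 0.08, and 1 of 4 matched its own number best, so the numbers were not taken as pairs. The processed signal moved the median of all genes to -0.07. Differences from cortex (7 genes) became 11 with the slide as a block, 180 with fetal arrays alone, 4 at an adjusted p under 0.01, and 4 to 10 when an array was left out (fewest without cortex 100 d replicate 4, most without brainstem 100 d replicate 2). For hypothalamus (2 genes) they were 0 with the processed signal, where 262 genes had an unadjusted p under 0.05 in limma, 1 at 0.01 and 0 to 7 without an array (0 without brainstem 100 d replicate 3 or 120 d replicate 4, 7 without 100 d replicate 2). For hippocampus (5 genes) they were 2 with the processed signal, 1 with fetal arrays alone, 2 at 0.01 and 1 to 36 without an array (1 without brainstem 120 d replicate 3, 36 without hippocampus 100 d replicate 3 and 35 without its replicate 1). For probes near background the size of a change is only approximate.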
